A study of Homo sapiens with 12 samples.

Results

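The regions described here are the strong CTCF sites of DCIS.COM, an established human breast cell line used as a model of ductal carcinoma in situ (DCIS). They come from 1 ChIP-exo library made with an anti-CTCF antibody in non-silencing (NS) control cells, which the sample labels call a positive control. ChIP-exo trims each immunoprecipitated DNA fragment with an exonuclease up to the crosslinked protein, so a bound site gives a pair of borders, one per strand, and each line of the deposited list is such a peak pair with a signal. Peak pairs were selected on their deposited CTCF signal, keeping those of 64 or more. Windows of 100 bp were set round their midpoints, and those sharing at least 1 bp were merged. This kept 24042 of the 457119 CTCF peak pairs (5.26%) and gave 12384 strong CTCF regions, of 266055 CTCF regions in all. The remaining 253671 regions, which overlap no strong region, are called weaker CTCF regions below.

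The same cell line gave 10 further libraries: 2 of BCL9-knockdown (BCL9 KD) cells and 3 of NS control cells with an antibody against STAT3 phosphorylated at a serine (pSTAT3), and 2 of BCL9 KD and 3 of NS control cells with an anti-BCL9 antibody. The labels name these as biological replicates. CTCF was profiled neither in replicate nor in BCL9 KD cells, an IgG library was not analysed here, and the 11 lists together hold 2591856 peak pairs, between 24728 and 493174 each. A share of regions below is therefore a value of 1 CTCF library, and regions are not replicates of a condition.

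CTCF is a zinc finger protein that binds a long, well conserved DNA motif and is known for separating regulatory domains. Chromatin loops extruded by the cohesin ring tend to stop at CTCF sites, most often where 2 motifs point towards each other. At promoters and imprinted loci CTCF is known as an insulator that keeps an enhancer from a gene.

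The signal is a whole number of sequence tags times a constant of the library. The strong regions carried a signal of 65.0 to 731 at their strongest peak pair, with a median of 90.6, which corresponds to 61 to 686 tags with a median of 85. The 938 peak pairs just inside the threshold had 61 tags (signal 65.0) and the 956 just outside had 60 tags (signal 63.9), so the threshold cuts a continuous range. Of the strong regions, 6028 (48.7%) came from a single strong peak pair, and the most in 1 region was 15. These values chose the regions and carry no test.

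The sequences of the strongest regions show what was bound. They are given as the GRCh37 plus strand, with the core of the CTCF motif in capitals. The core was searched on both strands as CC, any 3 bases, then AGGGGGC or AGGTGGC or AGAGGGC or AGATGGC. The 5 regions below are the strongest that hold 2 such cores, and the coordinates are those of the printed stretch.
TBC1D28, chr17:18529028-18529107, signal 731: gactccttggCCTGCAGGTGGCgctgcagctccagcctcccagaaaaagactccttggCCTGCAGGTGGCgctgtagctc
PRDM7, chr16:90182700-90182794, signal 616: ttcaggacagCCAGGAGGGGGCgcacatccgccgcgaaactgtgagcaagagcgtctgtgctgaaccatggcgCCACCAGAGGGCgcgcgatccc
RFX7, chr15:56538374-56538440, signal 550: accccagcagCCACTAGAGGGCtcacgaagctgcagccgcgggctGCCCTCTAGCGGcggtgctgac
SPOCK2, chr10:73808385-73808469, signal 540: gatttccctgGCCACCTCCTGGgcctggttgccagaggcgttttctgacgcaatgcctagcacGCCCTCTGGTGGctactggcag
IRF2BP1, chr19:46386760-46386843, signal 489: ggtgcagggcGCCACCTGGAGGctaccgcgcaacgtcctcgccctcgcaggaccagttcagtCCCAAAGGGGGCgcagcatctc

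Each region is named by the gene with the nearest protein-coding transcription start site (TSS), which need not be its target. The 2 cores start 48 bp apart near TBC1D28, 63 bp near PRDM7, 35 bp near RFX7, 53 bp near SPOCK2 and 52 bp near IRF2BP1. They lie on the same strand near TBC1D28, PRDM7 and SPOCK2, point towards each other near RFX7, a winged-helix transcription factor gene, and away from each other near IRF2BP1, a co-repressor gene. Near TBC1D28 the 2 cores are identical, as are the 10 bases before them.

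Pairs of cores were rare in the strong regions but not among the strongest. Of the 20 strongest regions, 10 held 2 or more core strings, against 106 of the 12384 strong regions. The share was 19.3% of the 109 regions with a signal of 4 times the threshold or more, 2.20% of the 2046 between 2 and 4 times and 0.391% of the 10229 under 2 times the threshold. Stronger regions are longer, with median lengths of 225, 151 and 100 bp in the same order. Within the 100 bp window of the strongest peak pair alone the shares were 7.34%, 0.831% and 0.264%. Of the 118 neighbouring pairs of cores, 77 shared a strand, with a median of 55 bp between their starts, while 25 were divergent and 16 convergent.

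The core string alone was found in 4820 strong regions, 38.9% (95% Wilson interval 38.1 to 39.8), against 0.543% of flanking windows of the same length at 500 and 1000 bp, a 71.7-fold difference. Intervals of this kind cover counting error only. A position weight matrix of 19 bases, built from strong regions on odd-numbered chromosomes, tolerates single substitutions. At a score that 1.00% of flanking windows reach, it found the motif in 9752 strong regions, 78.7% (95% Wilson interval 78.0 to 79.5). The share was 77.9% on the even-numbered chromosomes and X, which were not used to build the matrix, and 79.4% on the odd-numbered ones. In weaker CTCF regions the core string was found in 4.74% and the matrix in 11.5%.

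The motif share followed the signal below and above the threshold. Matrix hits were found in 93.6% of regions at 4 times the threshold or more, in 87.0% between 2 and 4 times and in 76.9% of the other strong regions. Just below the threshold, in the 13636 regions between 32 and 64, the share was 76.8%. Those regions are longer, with a median of 253 bp against 100 bp in the lowest strong class, and so had more room for a motif. The share was 58.4% between 16 and 32, 26.5% between 8 and 16 and 3.22% under 8, where 208042 of the weaker regions lie. The plot of motif share by signal shows both measures on this scale.

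**Figure D1:**
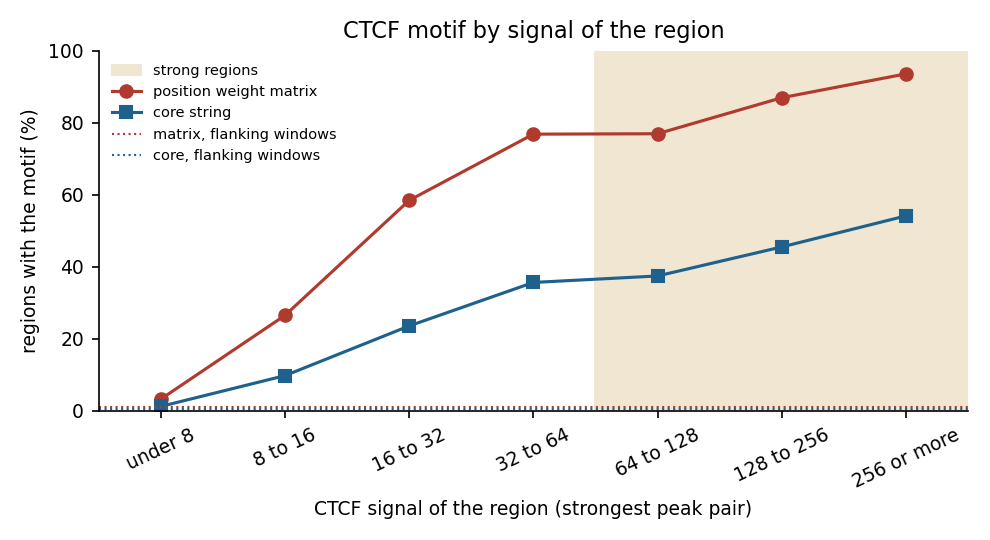
Share of CTCF regions (vertical axis, percent) with the position weight matrix (circles) or the core string (squares), by the signal of the strongest peak pair (horizontal axis); dotted lines give the flanking windows of strong regions and shading marks the strong classes. The matrix share was 76.8% in the class just below the threshold, 76.9% just above it and 93.6% in the highest class.

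The motif was the same site in many spellings. The 9752 matrix hits used 1331 different 12-base cores, of which 546 were seen once, and 4606 hits matched the core string itself. The most common core, given here because it is the commonest form of the bound site, stood in 293 regions (3.00%).
core 1: ccaccagggggc
core 2: ccaccagagggc
core 3: ccagcagagggc
core 4: ccactagagggc
Core 2 was found in 287 regions, core 3 in 269 and core 4 in 260. All begin with CC and end with GGC, letters that the core string also sets, and they differ among themselves at positions 4, 5 and 8.

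Counted from 1 at the first base of the core, the most fixed positions were C at position 2 (99.6% of hits, 1.96 bits), G at position 7 (99.8%, 1.98 bits) and G at position 10 (99.1%, 1.92 bits). Position 8 was split between G in 53.8% and A in 45.9% of hits. The matrix was first built from windows holding the core string. That string sets C at position 2, G at positions 7 and 10 and A or G at position 8. These core values therefore follow in part from the search. Outside the 19 bases scored by the matrix, composition was still uneven on both sides. T stood at position -12 in 47.0% of hits and C at position -10 in 44.1%, and on the far side G stood at position 19 in 46.1% and C at position 22 in 46.0%. These positions were not used to find the hits, and their information of 0.149 to 0.195 bits is small beside that of the core.

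Strong regions without a matrix hit numbered 2632 and were weaker in signal, with a median of 83.1 against 92.7 in regions with a hit. The strongest was near FOXI3, a forkhead transcription factor gene, with a signal of 314. Its 100 bp window is shown because it holds the core string, in capitals, in a context that scored 9.95 bits, under the threshold of 11.64 bits.
FOXI3, chr2:88754483-88754582: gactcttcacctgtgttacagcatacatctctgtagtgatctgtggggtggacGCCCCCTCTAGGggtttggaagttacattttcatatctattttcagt
The next, near NT5C1B, had a signal of 306 and scored 11.5 bits, and that near KANK1 had 298 and scored 10.6 bits. The region near TM4SF1 had 276 and scored 11.58 bits, and that near ITPKB had 265 and scored 2.51 bits. Of these 5 strongest regions without a hit, 4 thus scored within 2 bits of the threshold and the one near ITPKB far below it. A missing hit says only that these letters did not reach the score.

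Strong regions were richer in G and C than their surroundings, with a mean GC content of 51.9%, against 45.6% in the flanking windows and 44.9% in weaker CTCF regions. The AP-1 string, TGACTCA or TGAGTCA, stood in 1.72% of strong regions and 2.01% of their flanks. It was found in 2.15% of all weaker regions and in 4.41% of those with a signal of 32 to 64, which are longer. AP-1, the JUN and FOS dimer, was searched because it marks many enhancers of epithelial cells.

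Some strong regions are copies of each other. The 52-base window round the motif (10 bases before the core and 30 after it) was shared exactly with another strong region in 312 regions (3.20% of those with a hit), in 124 groups. The largest group had 15 members, all on chromosome 19, and its sequence is shown because it recurs in both of the densest stretches of strong regions.
repeated window, chr19:48410794-48410845, nearest TSS of SULT2A1: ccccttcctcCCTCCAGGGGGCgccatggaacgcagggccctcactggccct
Its 15 copies had signals of 69.3 to 127.9, and 10 of them had no pSTAT3 or BCL9 window. In the 100 kb bin round BSPH1 and ELSPBP1, genes of the sperm-binding protein family, 14 strong regions were found, the most of any bin, with signals of 71.4 to 335. The repeated window stood in 5 of them, all on the plus strand, with steps of 5352 to 15717 bp between copies. The second densest bin, round IZUMO2 and MYH14, held 10 strong regions, 9 of them with the same window, all on the minus strand and with a median step of 5351.5 bp. The sources used here do not say how reads that match several copies were placed, so the signals of copies may not be separate measurements.

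The same holds for some of the strongest regions. The central 50 bases of the region near PRDM7, a relative of the recombination factor PRDM9, occur 5 times in the genome, those near FAM20C, a kinase of secreted proteins, 4 times, and those near NBPF24 3 times. The 52-base motif window is identical near PRDM7 and FAM20C and in 3 further strong regions. The other 17 of the 20 strongest regions had a single copy. Other repeated groups lay in known segmental duplications: 7 regions on chromosome 15 near GOLGA6L genes, with signals of 67.1 to 115, and 6 on chromosomes 2 and 9 near FOXD4L genes, with 69.3 to 263.

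Strong CTCF regions lay mostly away from genes' starts. By midpoint, 1045 (8.44%, 95% Wilson interval 7.96 to 8.94) were within 1 kb of a protein-coding TSS, 172 (1.39%) in coding exons, 481 (3.88%) in other exonic sequence, 4508 (36.4%) in introns and 6178 (49.9%) between genes. As a local expectation, the regions were shifted by 5 to 50 kb in both directions, 10 times. Against these shifts promoters were over-represented 1.71-fold (4.93% when shifted) and intergenic sequence 1.10-fold, while introns were at 0.826-fold and coding exons at 0.746-fold. Weaker CTCF regions had 6.62% at promoters, 1.91-fold over their own shifts, and coding exons at 1.03-fold. The median distance to a protein-coding TSS was 20910.5 bp for strong and 33933 bp for weaker regions.

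Most strong promoter regions lay upstream of the start. Of the 1045 promoter regions, 789 (75.5%) had their midpoint upstream of the nearest TSS, against 8565 (51.03%) of the promoter regions among weaker ones, a difference that was not tested. The motif was on the strand of the gene in 411 of the 732 strong promoter regions with a matrix hit (56.1%). The matrix was found in 70.0% of promoter regions and 79.6% of intergenic ones, at equal median signals of 91.6.

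Strong regions were not spread evenly over the chromosomes. Their density was 4.37 per Mb over the genome. It was highest on chromosomes 19 (10.3 per Mb), 17 (9.28), 15 (6.94) and 1 (6.79), and lowest on X (1.09), 13 (2.17) and 4 (2.30). Weaker regions had 114, 132, 117 and 120 per Mb on the same 4 dense chromosomes and 51, 68.8 and 71.9 per Mb on the 3 sparse ones. The share of all CTCF regions that were strong was 8.28% on chromosome 19 and 2.08% on X. The number of chromosome copies in these cells moves with the tags of a region and was not measured here.

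Neighbouring strong regions were a median of 98566 bp apart (95% interval of the median 94672 to 102161). The 10th percentile of the distances was 8689 bp and the 90th 508304 bp. Of 12361 distances, 224 (1.81%) were under 1 kb, 1148 (9.29%) between 1 and 10 kb, 4857 (39.3%) between 10 and 100 kb, 4875 (39.4%) between 100 and 500 kb and 1257 (10.2%) longer, and the longest was 22.5 Mb. Most strong regions thus lay 10 kb or more from the next strong one, with weaker CTCF regions not counted. The 67 bins of 100 kb with 5 or more were exceptions among the 8588 bins that held any. The distances were not compared with an even spread.

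The orientation of neighbouring motifs changed with the distance between them. Over the 7669 neighbouring pairs in which both had a matrix hit, 25.8% were convergent (motifs pointing towards each other), 47.3% tandem and 26.9% divergent. Convergent and divergent pairs alternate along a chromosome, apart from breaks at regions without a hit. Their near-equal totals therefore follow largely from the counting and say nothing of a preference. Among neighbours 1 to 10 kb apart the convergent share was 12.2% (95% Wilson interval 10.1 to 14.7) and the divergent share 34.6% (31.4 to 38.1). At 10 to 100 kb they were 22.5% (21.1 to 24.02) and 31.005% (29.4 to 32.6). At 100 to 500 kb the order was turned, with 32.2% convergent (30.5 to 33.9) and 22.2% divergent (20.8 to 23.8), and at 500 kb or more the shares were 29.6% and 20.4%. Convergent neighbours were a median of 128271 bp apart, tandem ones 90982.5 bp and divergent ones 66987.5 bp. The rule used neither the motif strand nor the distance, and the shares are given as a description because neighbouring pairs share regions.

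**Figure D2:**
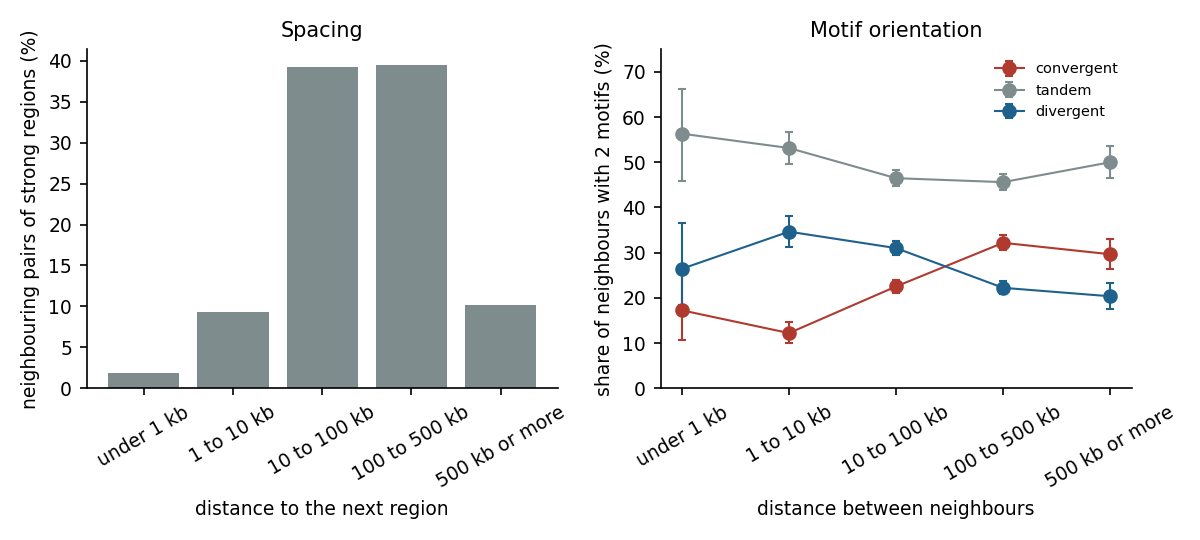
Left, share of neighbouring pairs of strong CTCF regions (percent) by their distance; right, share of neighbours with 2 matrix hits (percent) that are convergent, tandem or divergent, by distance, with 95% Wilson intervals as bars. Convergent neighbours made up 12.2% at 1 to 10 kb and 32.2% at 100 to 500 kb, and divergent ones 34.6% and 22.2%.

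The borders of the CTCF peak pairs clustered at some places round the motif and were spread widely beside them. At strong regions with a matrix hit, 55959 CTCF peak pairs were listed, strong and weak. Oriented along the motif and counted from its middle base, the upstream border was most often at -26 and the downstream border at 26. The bins from -30 to -21 held 9.69% of upstream borders and those from 21 to 30 held 9.02% of downstream borders, where an even spread would give 2.49%. A second peak lay inside, with 7.70% of upstream borders at 11 to 20 and 7.30% of downstream borders at -20 to -11. Outside these lay a broad shoulder that held more borders than both peaks together, with 27.99% of upstream borders at -100 to -51 and 26.3% of downstream borders at 51 to 100, where an even spread would give 12.5%. The strongest peak pair of a strong region was 156 bp wide in the median, against 61 bp in weaker regions.

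Few genes had a strong CTCF region near their start. Of 19748 protein-coding genes, 2708 (13.7%) had one within 5 kb of a TSS and 1071 (5.42%) within 1 kb, whereas 79.5% had a CTCF region of any signal within 5 kb. Loci known from the CTCF literature were read against this background. Of 38 such genes, 7 (18.4%) had a strong region, among them IGF2, MYC, PIM1, DMPK, BCL6 and SHH. The share is near that of all genes.

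MYC, the growth-promoting transcription factor, had the strongest of these regions, with a signal of 251 and a matrix hit on the plus strand at -1330 bp from its TSS. It also had a window in 4 of 5 pSTAT3 and 3 of 5 BCL9 libraries. The region of BCL6, a transcriptional repressor, had a signal of 193 at 3268 bp downstream of a TSS and was 1 of 4 strong regions there. It had no matrix hit.

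DMPK, the kinase gene whose repeat expands in myotonic dystrophy, had a signal of 95.9 at 2368 bp. Its motif is shown, core in capitals, because CTCF sites at DMPK are known to flank the repeat.
DMPK, chr19:46273580-46273631: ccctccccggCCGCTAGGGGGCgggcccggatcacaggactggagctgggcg
The regions of PIM1, a kinase, and SHH, a morphogen, had signals of 89.5 and 67.1. The 2 strong regions of IGF2, an imprinted growth factor gene, reached 84.2 and the stronger had no matrix hit.

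Imprinted loci named with CTCF were otherwise not prominent. H19, whose upstream control region is known to bind CTCF on the maternal allele, had no strong region within its body and 5 kb on each side, and the highest signal among its 7 weaker regions was 35.2 (33 tags). KCNQ1OT1 had 9 weaker regions with a highest signal of 26.6. The MEG3 region had 1 strong region, with a signal of 75.7 and no matrix hit. The 2 parental alleles cannot be told apart in these lists.

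Among 18 genes of CTCF and cohesin factors, 2 (11.1%) had a strong region, against 13.7% of all genes. Both encode cohesin subunits that occur as alternatives. Both regions lay within 5 bp of the TSS, at 2 bp downstream for STAG1 and 5 bp upstream for STAG2, with signals of 165 and 183. Their motifs are shown because CTCF stood at the start of the gene itself. Both are printed along the motif, which is the GRCh37 minus strand for STAG1 and the plus strand for STAG2.
STAG1, chr3:136471219-136471270: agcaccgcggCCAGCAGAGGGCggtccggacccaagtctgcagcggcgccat
STAG2, chrX:123094363-123094414: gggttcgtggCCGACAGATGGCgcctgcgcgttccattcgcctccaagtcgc
The gene of CTCF itself had none.

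A list of 12 genes was made of BCL9, STAT3, the BCL9 paralogue BCL9L and integrin, MMP and other genes that the study examined. Of the 12, 2 (16.7%) had a strong region, against 13.7% of all genes. MUC1, a mucin of the epithelial surface, had a signal of 136 within 1 kb upstream of its TSS and a window in 4 pSTAT3 and 2 BCL9 libraries. BCL9L, which is on the list as a paralogue and not as a gene of the study, had 98.03 at -4501 bp and a window in 3 libraries of each antibody. ITGB3, MMP16 and BCL9 had none. The sequences of MUC1 and BCL9L are printed along their motifs, on the GRCh37 minus strand.
MUC1, chr1:155163406-155163457: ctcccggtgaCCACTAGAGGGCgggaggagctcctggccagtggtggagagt
BCL9L, chr11:118801108-118801159: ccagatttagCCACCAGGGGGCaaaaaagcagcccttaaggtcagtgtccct

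The other lists gave 7 of 24 AP-1, C/EBP and STAT3 target genes (29.2%), 2 of 20 basal epithelial genes, 3 of 20 housekeeping genes (15.0%) and 5 of 24 genes specific to other tissues (20.8%). In the first of these, VEGFA, an angiogenic growth factor, had the strongest region with 151, followed by TWIST1, a mesenchymal transcription factor, with 127.9 and BCL2L1, an inhibitor of apoptosis, with 119. S100A2, a calcium-binding protein of basal epithelium, had 200.3 at -834 bp. Genes silent in epithelium were also reached, such as CD8A, a T cell co-receptor, with 157 at -140 bp, and GFAP, an astrocyte filament, with 144. PIM1 was counted both among the AP-1, C/EBP and STAT3 target genes and among the genes of the CTCF literature. No list was tested, since the lists are short and were chosen with results known.

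Long genes held the most strong regions in their body and 5 kb on each side. CPNE4 and KALRN, a guanine nucleotide exchange factor, held 11 each, THSD4 held 10, and DIAPH1, IQCJ-SCHIP1 and KCNAB1 held 8 each. CPNE4 spans 752 kb and KALRN 693 kb, so their density was 14.4 and 15.6 per Mb. DIAPH1, a formin that nucleates actin filaments, spans only 104 kb and reached 70.2 per Mb, with a highest signal of 241. A further 13 genes had 7 each, among them ANK3, ARHGAP26, CDH23 and DST. Of the remaining dense bins of 100 kb, the one with ERCC1, FOSB, PPP1R13L and RTN2 held 9 strong regions up to 274 and DIAPH1's held 8.

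In gene clusters known for CTCF the counts of strong regions were small, and differences in density were not tested. The HOXB cluster had 7 strong regions (34.96 per Mb), against 2 in HOXA (18.7 per Mb), 2 in HOXC (17.1) and 1 in HOXD (10.2). The clustered protocadherins, where CTCF is known to select promoters in neurons, had 2 (PCDHA), 3 (PCDHB) and 2 (PCDHG), beside 27 to 48 weaker regions in each cluster. The type II keratin cluster had 12 strong regions up to 246 (15.3 per Mb), against 7 in the type I cluster (7.22 per Mb). The HIST1 histone cluster had 17 in 2.14 Mb. The density was 4.37 per Mb over the genome. It was 9.28 on chromosome 17 (HOXB and type I keratins) and 4.28 on chromosome 12 (HOXC and type II keratins).

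The 20 strongest regions all had a matrix hit and none was at a promoter. Their signals ran from 399 to 731, 13 were intergenic, 6 intronic and 1 in an exon, and 6 had no core string. The strongest not shown above were those near TNK2, a tyrosine kinase gene, with 518 at 25532 bp, and CCDC8, a cytoskeletal adaptor gene, with 487 at 17813 bp. Windows of other libraries were found at 18 of them. The highest number of tags there was 26, at ZBTB7B, a transcription factor gene, in pSTAT3 of BCL9 KD replicate 1. SPOCK2 had windows in 8 libraries, the most of the 20, and none passed 17 tags there. RFX7 and IRF2BP1 had none.

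The share of strong CTCF regions with a pSTAT3 or BCL9 window followed the length of each list. For pSTAT3, 21.003% and 23.9% of strong regions had a window in BCL9 KD cells, against 6.52%, 3.601% and 19.6% in NS control cells. For BCL9 the shares were 5.58% and 16.1% in BCL9 KD cells, against 1.09%, 0.622% and 7.49% in NS control cells. Both knockdown pSTAT3 shares lay above all 3 control shares, while those of BCL9 overlapped. The same libraries gave 3.68% and 4.33%, against 1.05%, 1.01% and 3.53%, for pSTAT3 after shifting the regions, and 0.966% and 3.44%, against 0.334%, 0.245% and 1.52%, for BCL9.

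The mean pSTAT3 share was 22.5% ± 2.08 (SD, n = 2) in BCL9 KD and 9.90% ± 8.51 (n = 3) in NS control cells, a difference of 12.6 percentage points. An exact two-sided permutation of condition gave p = 0.2 (Benjamini-Hochberg adjusted p = 0.3 over 6 tests), in a design whose smallest p is 0.1. For BCL9 the means were 10.8% ± 7.41 (n = 2) and 3.07% ± 3.84 (n = 3), a difference of 7.75 points, exact p = 0.3 (adjusted p = 0.36). Neither difference passed the threshold. The knockdown lists are also longer on average, and when every list was cut to its 24728 strongest peak pairs, the length of the shortest, the pSTAT3 difference turned to -0.24 points (exact p = 0.2) and the BCL9 difference was 0.052 points (exact p = 0.9). With peak pairs of 9 tags or more they were 1.89 points (exact p = 0.2) for pSTAT3 and 1.52 points (exact p = 0.2) for BCL9. The 2 effects themselves differed by 4.82 points (exact p = 0.65 over 100 assignments).

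**Figure D3:**
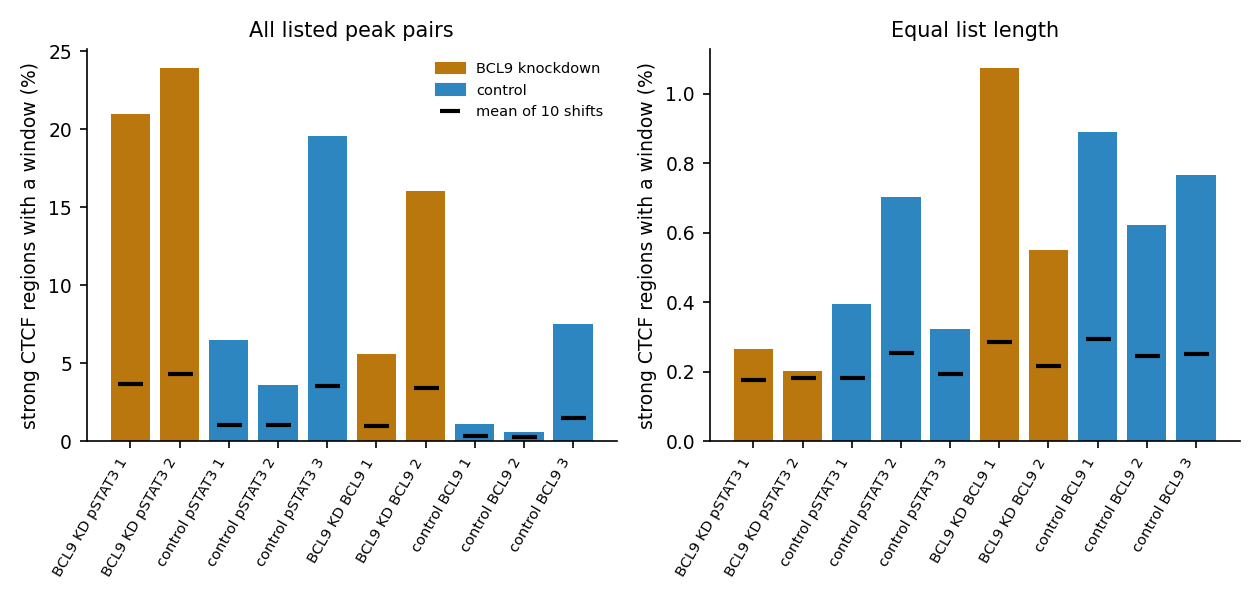
Share of the 12384 strong CTCF regions with a window of each pSTAT3 and BCL9 library (bars, percent; BCL9 knockdown in orange, NS control in blue), for all listed peak pairs (left) and for the 24728 strongest of each list (right); black dashes give the mean over 10 local shifts. The highest share was 23.9% with all pairs and 1.07% at equal list length.

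Relative to the shifted regions, strong CTCF regions were enriched in every list. The fold was 5.71 and 5.53 in knockdown pSTAT3 libraries, against 6.19, 3.55 and 5.55 in control ones, and 5.78 and 4.67 in knockdown BCL9 libraries, against 3.26, 2.54 and 4.94 in control ones. The mean was 5.31 ± 1.02 for pSTAT3 and 4.24 ± 1.31 for BCL9 (SD, n = 5 each), a difference of 1.07 (exact two-sided permutation test, p = 0.183, adjusted p = 0.3). At equal list length the difference was -1.14 (exact p = 0.0238), with folds of 1.12 to 2.76 for pSTAT3 and 2.53 to 3.78 for BCL9. With peak pairs of 9 tags or more it was 0.48 (exact p = 0.627). The order of the antibodies thus turned at equal list length and was kept with the minimum of 9 tags. The lists did not start at equal tags, with a lowest count of 3 to 6 in pSTAT3 and 5 to 9 in BCL9 lists. Equal length kept the whole list of control BCL9 replicate 2, and the minimum of 9 tags removed none of its pairs. Equal length therefore compares the lists at unlike tags.

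Strong CTCF regions were more enriched than weaker ones when all listed pairs were used. On the log2 scale the fold was 2.20 ± 0.43 at strong and 1.45 ± 0.26 at weaker regions (SD, n = 10 libraries), a mean difference of 0.75 ± 0.61 that was positive in 8 of 10 libraries (exact sign-flip test, p = 0.00977, adjusted p = 0.0293). The exceptions were control BCL9 replicates 1 and 2, with -0.15 and -0.50, whose lists are the shortest. The 10 values share the CTCF library and are not independent. With equal list length the mean difference was -0.69 (exact p = 0.00195), and with peak pairs of 9 tags or more it was -0.24 (exact p = 0.754). The higher fold at strong CTCF regions therefore belonged to peak pairs low in the pSTAT3 and BCL9 lists.

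The tags of the pSTAT3 and BCL9 peak pairs showed this directly. Among pairs with 6 to 8 tags, strong CTCF regions were met 3.81 to 7.61 times as often as the shifts give in the 5 pSTAT3 libraries, and 2.34 to 6.04 times in 4 BCL9 libraries. With 9 to 15 tags the folds were 2.20 to 4.87 for pSTAT3 and 0.294 to 4.67 for BCL9, and with 16 to 31 tags 0.553 to 1.69 and 0.380 to 1.5. At 32 tags or more, 38 of 35546 pSTAT3 pairs met a strong CTCF region, a fold of 0 to 0.629, so strong CTCF regions held fewer of these pairs than their surroundings in all 5 libraries. The folds of 0 came from control replicates 1 and 2, with only 1225 and 1008 such pairs. The shifted shares there were 0.212% and 0.218%, so few pairs were to be met in either. For BCL9, 11 of 5587 such pairs did, a fold of 0.377 to 1.14 in 3 libraries with at least 1000 of them.

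Weaker CTCF regions ran the other way. Their folds were 2.43 to 3.77 for pSTAT3 pairs of 6 to 8 tags and 3.58 to 4.48 for those of 32 or more. Above 15 tags the fold was lower at strong than at weaker regions in all 5 pSTAT3 libraries and in the 4 BCL9 libraries with at least 1000 pairs of 16 to 31 tags. The weaker group is mostly regions with a signal under 8 (208042 of 253671), of which 3.22% had a matrix hit. Its folds by tags do not separate the 13636 regions of signal 32 to 64, of which 76.8% had one. These folds by tags were computed after the reversal was seen and carry no test.

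**Figure D4:**
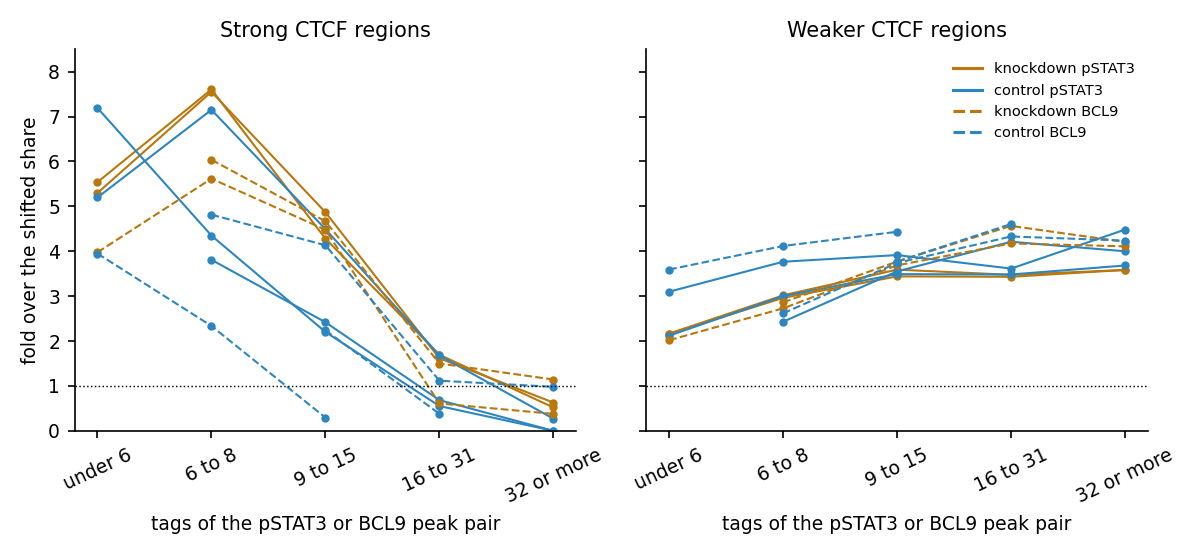
Fold over the shifted share (vertical axis) at which pSTAT3 (solid) and BCL9 (dashed) peak pairs met strong (left) and weaker (right) CTCF regions, by the tags of the peak pair (horizontal axis), for BCL9 knockdown (orange) and NS control (blue) libraries; points need at least 1000 pairs. At 32 tags or more the pSTAT3 folds were 0 to 0.629 at strong and 3.58 to 4.48 at weaker regions. A matrix hit was found in 11.5% of the weaker regions.

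By their median tags, the peak pairs found at strong CTCF regions were ordinary ones for their lists. The median of the strongest pair at regions with a window was 4 to 7 tags in pSTAT3 and 5 to 10 tags in BCL9 libraries. This was the 36.8th to 66.6th percentile of the list they came from. The median does not show that pairs of many tags were scarce there, as the folds by tags above do. Their tags were barely related to the CTCF signal of the region, with Spearman coefficients of 0.024 to 0.165 over 77 to 2965 regions, given as a description because the regions share libraries and depth.

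Their borders gathered in part where those of CTCF did. In knockdown pSTAT3 libraries, 10.3% and 8.74% of upstream borders fell at -30 to -21 from the middle of the CTCF motif, against 7.61%, 7.601% and 9.38% in control ones, beside 9.69% for CTCF itself. In the bin from -50 to -41 the pSTAT3 shares were 4.54% to 6.41%. Downstream borders at 21 to 30 made up 9.03% to 10.9% of the pSTAT3 pairs and 9.02% of the CTCF pairs. The BCL9 libraries gave 9.06% to 9.45% upstream in control replicates 1 and 3 and 8.67% and 9.06% in knockdown, while control replicate 2, with 71 pairs at these regions, gave 5.88%. Downstream at 21 to 30 the BCL9 shares were 7.56% and 9.92% in knockdown, against 8.87%, 2.94% and 8.37% in control libraries, so that of control replicate 2 was near the even spread. The single most frequent position varied more, from -35 to -15 upstream and 24 to 64 downstream in pSTAT3 libraries, and from -130 to -14 and 8 to 33 in BCL9 libraries, beside -26 and 26 for CTCF. The inner downstream border of CTCF, at -20 to -11, was less frequent, with 1.47% to 3.52% over the 10 libraries, against 7.30% for CTCF. The inner upstream border, at 11 to 20, was closer to CTCF in the pSTAT3 libraries, with 5.82% to 7.84%, against 7.70% for CTCF. In the BCL9 libraries it ranged from 3.15% to 7.35%. These shares were not tested, since windows had to meet a CTCF region to be counted. Whether CTCF tags reached these lists through the libraries' background was not tested.

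**Figure D5:**
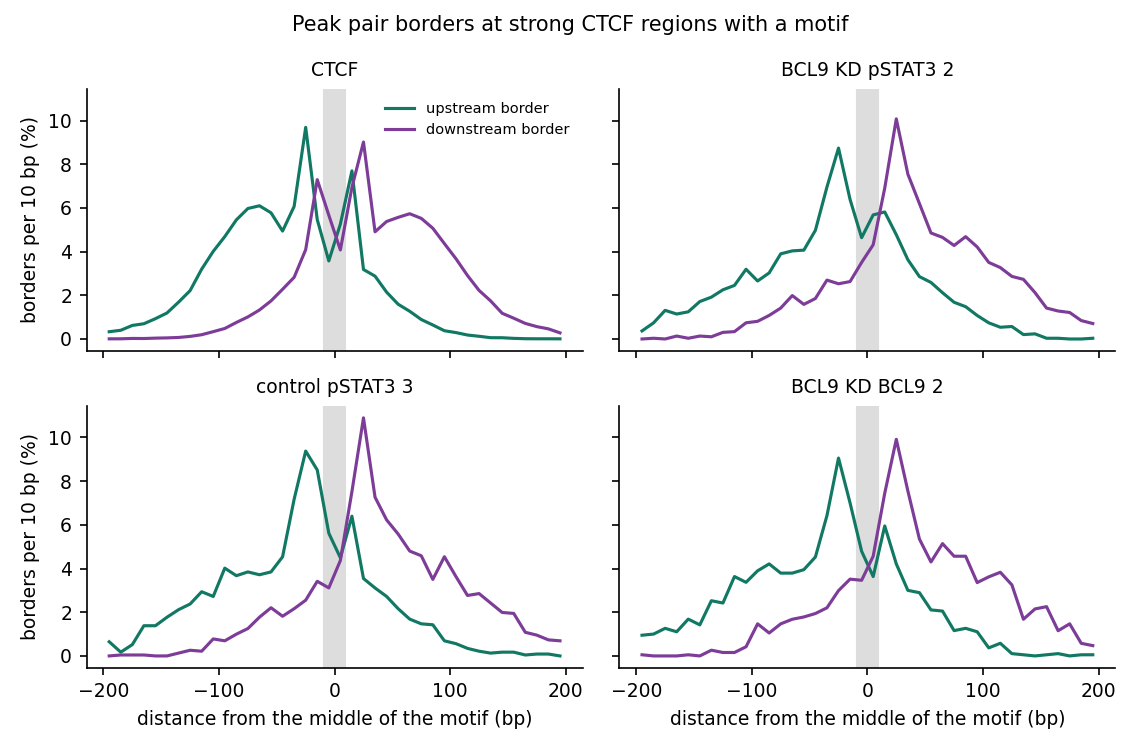
Share of peak pair borders per 10 bp (percent, vertical axis) by distance from the middle of the CTCF motif (bp, horizontal axis, oriented along the motif, shown in grey), for CTCF and for the longest list each of knockdown pSTAT3, control pSTAT3 and knockdown BCL9. Upstream borders at -30 to -21 made up 9.69% for CTCF, 8.74% for knockdown pSTAT3 replicate 2, 9.38% for control pSTAT3 replicate 3 and 9.06% for knockdown BCL9 replicate 2.

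Promoter CTCF regions were met more often than distal ones, among strong and weaker CTCF regions alike. With pSTAT3, 31.3% and 34.3% of the 1045 promoter regions had a window in knockdown libraries, against 12.6%, 6.03% and 28.7% in control libraries. Of the 11339 distal regions, 20.1% and 22.99% had one in knockdown, against 5.96%, 3.38% and 18.7% in control libraries. The log2 fold over the shifts was 2.65 ± 0.42 at promoter and 2.13 ± 0.45 at distal strong regions, a difference of 0.52 ± 0.18 (SD, n = 10) that was positive in 10 of 10 libraries (exact sign-flip test, p = 0.00195, the smallest it allows, adjusted p = 0.0117). These 10 values also share the CTCF library and are not independent. Among regions of at least 2 times the threshold the difference was 0.16 (exact p = 0.197). With promoters taken as 5 kb it was 0.087 (exact p = 0.283). At weaker CTCF regions the fold was also higher at promoters in every library, with 4.08 to 6.61 at promoter and 2.14 to 3.33 at distal regions. The contrast is thus not particular to strong regions, where the folds were 4.39 to 9.78 and 2.34 to 5.77.

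Between strong regions with and without the core string no difference passed the test. The log2 fold was 2.18 ± 0.39 with the core string and 2.20 ± 0.48 without it, a difference of -0.02 ± 0.17 (SD, n = 10, exact sign-flip test p = 0.773), positive in 5 of 10 libraries. With the matrix in place of the core string the difference was -0.094 (exact p = 0.00195). Here too the 10 values share the CTCF library and are not independent. Fewer promoter regions have a matrix hit, and among distal regions alone the difference was 0.0054 (exact p = 0.875).

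Most strong CTCF regions had few or no windows of other libraries. None of the 10 libraries had a window at 5263 (42.5%), 1 did at 3846 (31.1%) and 2 at 1786 (14.4%). Windows of both antibodies, from any library, were found at 1987 regions (16.04%), of pSTAT3 without BCL9 at 3992 (32.2%) and of BCL9 without pSTAT3 at 1142 (9.22%). The median CTCF signal was 86.3 in regions without a window and 101.2 in regions with both antibodies, and the regions' median length was 100 and 133 bp, so the longer regions also had more room for a window.

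Regions met by more pSTAT3 libraries held AP-1 strings more often. The share with TGACTCA or TGAGTCA was 1.20% of the 6405 regions with no pSTAT3 window, 1.44% with 1 library, 2.06% with 2, 4.08% with 3, 9.36% with 4 and 19.4% of the 67 regions with all 5. Over the same classes the promoter share ran from 6.12% to 25.4% and the mean GC content from 50.9% to 58.9%, while the CTCF matrix share was 78.4% at one end and 70.1% at the other. The median region length was 100, 112, 129, 139, 136 and 144 bp in the same order, so regions met by more libraries also had more room for the string. By the number of BCL9 libraries the AP-1 share was 1.71% with none, 1.36% with 1, 2.83% with 2 and 6.10% of 82 regions with 3.

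A single strong region had windows in all 10 libraries. It lies 37618 bp downstream of the TSS of TUBD1, a tubulin gene, has a CTCF signal of 70.3 near the threshold, and its pSTAT3 peak pairs had 31 and 31 tags in knockdown libraries, against 12, 6 and 14 in control libraries. The BCL9 pairs had 10 and 14 tags in knockdown libraries, against 5, 14 and 33 in control libraries, so the groups overlap for BCL9. The window is shown because it holds an AP-1 string, in capitals, beside a CTCF matrix hit on the minus strand that scored 12.1 bits.
TUBD1, chr17:57930696-57930795: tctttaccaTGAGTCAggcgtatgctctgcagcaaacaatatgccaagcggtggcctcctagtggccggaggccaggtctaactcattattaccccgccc

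At the other end, the strongest regions with no window in any library were those near RFX7 and IRF2BP1, followed by EFCAB2 with a signal of 327, SULT2A1 with 308 and ASPG with 300.5. The SULT2A1 region lies in the repeated stretch on chromosome 19. The 10 strongest regions without a window all had a matrix hit, and their signals were 263 to 550. The most strongly bound CTCF sites thus included some with no pSTAT3 or BCL9 peak pair at all in 10 lists.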

How the data were processed

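ChIP-exo libraries of DCIS.COM cells (1 CTCF, 5 pSTAT3, 5 BCL9) were used as lists of peak pairs. The deposited signal of a pair, as the authors scaled it, is its tag count multiplied by a constant of the library (1.07 for CTCF), whose origin the sources do not state. Processing notes of the submitters list bcl2fastq and hg19, with an aligner not given in the sources used here. List length is not read depth, which was not used. Columns 4 and 5 gave midpoints. Windows of 100 bp were merged where they shared 1 bp, and overlap was compared with the mean of 10 shifts of 5 to 50 kb. Log2 folds add 0.5 to region counts. Gene starts (78394, protein-coding) came from GENCODE v44 on GRCh37. Exact permutation and sign-flip tests were two-sided and adjusted together (Benjamini-Hochberg, 6 tests). The members, gene lists and the rule for named genes (strongest regions, listed genes, genes and bins with most regions, regions in all or no libraries) were chosen with earlier results of these data known. The regions without a matrix hit, those with 2 cores, exact copies and the folds by tags were described after values were seen. Some listed genes and bins are not reported here. Code was checked on simulated data. Python 3.11.15 was used with matplotlib 3.10.9, scipy 1.17.1, pandas 2.3.3 and numpy 2.4.6.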

Additional observations from a re-analysis of the deposited data

How the results depend on the processing

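Equal list length (the 24728 strongest pairs) turned the pSTAT3 knockdown difference to -0.24 points, strong against weaker to -0.69 and pSTAT3 against BCL9 to -1.14, and a minimum of 9 tags turned strong against weaker to -0.24. The BCL9 knockdown difference was 0.052 points at equal length. The promoter difference was 0.16 at 2 times the signal threshold and 0.087 with promoters of 5 kb. The core string difference was 0.033 at 2 times the threshold, -0.082 at 32 or more (exact p = 0.00391), 0.10 with 9 tags and -0.094 with the matrix. Among distal regions only it was 0.040, and 0.0054 with the matrix. The cause of these changes was not tested. The core share was 42.5% at 2 times the threshold, 37.03% at a signal of 32, 41.3% in 200 bp windows and 78.7% with the matrix. The promoter share was 9.69% at 2 times the threshold, 21.5% within 5 kb and 18.0% with TSSs of all genes. Spacing was 360744 bp at 2 times the threshold, 51868 bp at a signal of 32 and 102249 bp with regions closer than 1 kb joined.

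Leaving out 1 library gave 9.42 to 17.4 points for pSTAT3, 2.51 to 13.0 for BCL9, 0.69 to 0.88 for strong against weaker, 0.49 to 0.54 for promoters, -0.050 to 0.0071 for the core string and 0.64 to 1.505 for the antibodies. Without control pSTAT3 replicate 2 or knockdown BCL9 replicate 1 the core string difference was 0.0071 and 0.0025. With a replicate block the differences were 17.4 points (exact p = 0.5) for pSTAT3, 9.96 (exact p = 0.5) for BCL9 and 1.07 (exact p = 0.125) for the antibodies; equal numbers did not deviate together (correlations of -0.034 to 0.077). Against weaker regions of signal 32 to 64 only, strong regions differed by 0.25 (exact p = 0.0273), and by 0.80 with windows of the strongest pair alone. These comparisons, and those of distal regions, were chosen after seeing the data. The single CTCF library limits all values, and counting intervals do not cover differences between CTCF libraries.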
